A study of Mus musculus with 4 samples.

Results

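Fos, Fosb, Jun, Junb, Jund, Egr1, Egr2, Ier2, Atf3 and Dusp1 are immediate-early genes, which cells transcribe within minutes of a signal without first making new protein. They were taken as a named set, through the RefSeq accession of their array probes, and make up 10 of the 20619 genes named on the arrays. Fos and Jun proteins pair through their leucine zippers to form AP-1, a transcription factor that mitogen-activated protein kinases, including ERK and JNK, switch on after cytokine, growth factor or antigen receptor signals. Egr proteins are zinc-finger factors induced by the same kinases through serum response factor, and Egr2 is known in T cells as a restraint on activation. Enzymatic release of cells from tissue also induces many of these genes, so their level in freshly isolated cells is known to carry a trace of the handling as well as of the animal.

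RNA came from lamina propria lymphocytes, the lymphocytes of the connective tissue under the gut epithelium, isolated on day 10 from C57BL6 mice. The 4 groups were Stat4-/- mice given dextran sulfate sodium (DSS) and leukemia inhibitory factor (LIF), Stat4-/- mice given DSS, wild-type mice given DSS and LIF, and wild-type mice given DSS. DSS injures the colon lining and causes colitis, LIF is a cytokine of the interleukin-6 family that signals mainly through STAT3, and STAT4 carries interleukin-12 signals. All 4 groups had DSS, no group without it is analysed here, and 5 mice were used per group, without a statement of whether their RNA was pooled. Each group had 1 one-colour (Cy3) Agilent array, so the differences below have no replicate check, and no p-value is given. In RNA from a mixed isolate, fewer cells of a type and less RNA per cell cannot be told apart.

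A level is the log2 of a probe's processed signal minus the log2 of its array's 75th percentile, so 0 is that percentile and a step of 1 is 2-fold. The number of probes well above background was 18007 on the Stat4-/- DSS and LIF array, 17709 on the Stat4-/- DSS array, 14823 on the wild-type DSS and LIF array and 24339 on the wild-type DSS array, of 39429 each. The wild-type DSS and LIF array stood apart: its correlation with the others was 0.800 to 0.818 over 12674 probes, against 0.951 to 0.980 among the other 3. Differences that use it are therefore given beside those that do not. The Stat4 probe did not separate the genotypes: its level was -0.48 and 0.31 on the Stat4-/- arrays with DSS and LIF and with DSS, and 0.21 and -0.49 on the matching wild-type arrays. A probe outside the deleted part would check nothing, and Stat4-/- is used below as the label gives it. The T cell markers were well above background on all arrays, 7 of 7, as were 8 of 8 epithelial markers, while the leukocyte genes Ptprc and Laptm5 were not well above background on the wild-type DSS and LIF array.

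Promoters of 4 members are shown because Egr2, Jun and Jund passed 2-fold between arrays and Fos is the member with the most spots. Each runs 5′ to 3′ on the gene's strand, 250 bases before and 50 from the annotated start, from RefSeq on GRCm38.p6. Capitals mark matches on either strand to 6 motifs: the cyclic AMP response element, written TGACNTCA, which can contain its own shorter form, written TGACG, as well as the AP-1 site, written TGANTCA, the CArG box of serum response factor, the Egr site, written GCGNGGGCG, and the STAT site, written TTCNNNGAA. Egr2 is at chr10:67537619-67537918 (plus strand), Jun at chr4:95052173-95052472 (minus strand), Jund at chr8:70697489-70697788 (plus strand) and Fos at chr12:85473640-85473939 (plus strand).
Egr2: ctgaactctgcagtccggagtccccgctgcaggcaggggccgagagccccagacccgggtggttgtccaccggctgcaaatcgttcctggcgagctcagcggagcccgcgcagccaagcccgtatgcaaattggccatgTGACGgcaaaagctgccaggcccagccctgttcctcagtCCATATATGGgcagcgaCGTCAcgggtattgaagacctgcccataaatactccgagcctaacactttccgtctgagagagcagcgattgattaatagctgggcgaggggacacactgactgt
Jun: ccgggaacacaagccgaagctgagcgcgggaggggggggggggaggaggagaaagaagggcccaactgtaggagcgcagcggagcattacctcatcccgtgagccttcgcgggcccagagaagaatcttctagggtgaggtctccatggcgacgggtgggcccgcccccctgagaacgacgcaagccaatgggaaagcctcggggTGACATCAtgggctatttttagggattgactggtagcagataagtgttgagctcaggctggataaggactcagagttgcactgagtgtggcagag
Jund: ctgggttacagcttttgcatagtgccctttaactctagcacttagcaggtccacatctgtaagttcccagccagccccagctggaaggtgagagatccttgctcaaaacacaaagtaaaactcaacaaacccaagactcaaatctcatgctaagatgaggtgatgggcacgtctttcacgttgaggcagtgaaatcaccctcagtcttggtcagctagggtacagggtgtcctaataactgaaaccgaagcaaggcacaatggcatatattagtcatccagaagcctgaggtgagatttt
Fos: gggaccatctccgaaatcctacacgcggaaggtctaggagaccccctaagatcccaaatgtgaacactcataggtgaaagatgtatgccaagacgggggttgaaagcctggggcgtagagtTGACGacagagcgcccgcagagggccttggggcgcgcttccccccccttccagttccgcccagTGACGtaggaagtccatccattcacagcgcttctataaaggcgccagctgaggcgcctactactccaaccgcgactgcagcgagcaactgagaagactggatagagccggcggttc

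The Egr2 window, the first of 3 overlapping ones among 5 annotated Egr2 starts, held a CArG box at bases -72 to -63, counted back from the start, between TGACG matches at -111 to -107 and, on the other strand, -55 to -51. Jun held the 8-base element at -45 to -38, and Fos held TGACG at -129 to -125 and -66 to -62. The Jund window had none of these letters, which says nothing about the factors. Of 32851 windows of this length, 1.63% held a CArG box, 8.83% the longer cyclic AMP element, 20.8% its shorter form, 7.81% the AP-1 site, 5.55% the Egr site and 8.30% the STAT site. Dusp1 held TGACGTCA at -143 to -136 and a further TGACG at -191 to -187, and Fosb held TGACG at -60 to -56 and an Egr site at -50 to -42. Junb held TGACG at -106 to -102, and Atf3 held it on the other strand at -7 to -3. A match is a description of letters and not a bound site. Promoter entries were found for 8 of the 10 genes. Egr1 and Ier2 are named only.

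All 10 genes had 1 probe, and 9 of 10 were well above background on all 4 arrays. The exception was Ier2, which was not well above background on the wild-type DSS and LIF array. The scanner software's own error of a level was 0.144 to 0.266 for the other 9 genes. For probes with 5 or more spots, the spot-to-spot SD of a log2 difference between 2 arrays had a median of 0.0988 to 0.103. It covers the printing and reading of spots and not the spread between mice.

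**Figure D1:**
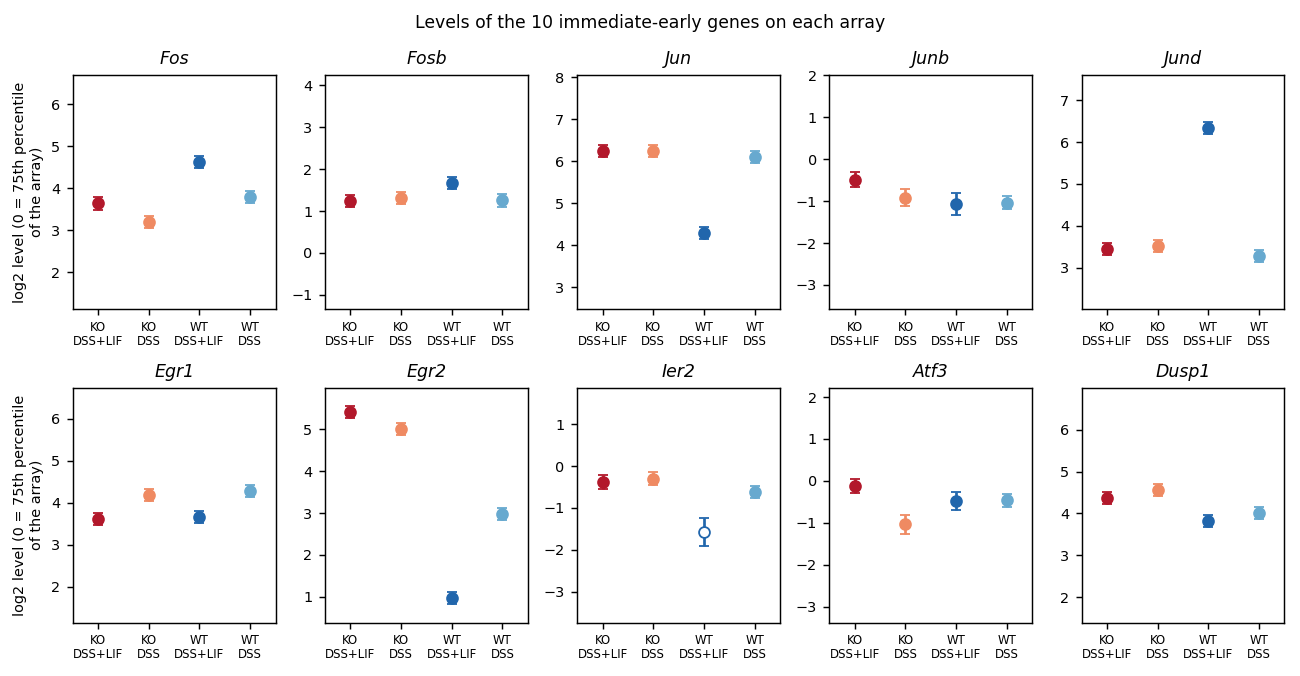
Log2 level (0 is the array's 75th percentile) of each of the 10 genes on the 4 arrays, 1 panel a gene, each panel with its own range but the same span. Bars are the scanner software's error and the open circle marks a level not well above background. Egr2 was high on both Stat4-/- arrays, while Jun and Jund on the wild-type DSS and LIF array lay away from the other 3 arrays.

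Fos, the prototype partner of Jun in AP-1, had log2 levels of 3.64 in Stat4-/- DSS and LIF cells, 3.20 in Stat4-/- DSS cells, 4.63 in wild-type DSS and LIF cells and 3.79 in wild-type DSS cells. Both Stat4-/- arrays were below both wild-type arrays, and each LIF array was above the DSS array of its genotype. The order by LIF depended on the background correction. With the normal-exponential correction at an offset of 50, the LIF difference was -0.38 in Stat4-/- mice and -0.37 in wild-type mice. With no offset it was -0.84 and 0.33. The spot spread that follows does not cover this. The probe had 10 spots, whose SD was 0.023, 0.042, 0.046 and 0.034 on those arrays, and no spots of any pair of arrays overlapped. The difference of Stat4-/- minus wild type was -0.59 with DSS alone, and with LIF as well it was -0.99, just under 2-fold. Fosb, a second Fos-family protein, stood at 1.25 and 1.32 on the Stat4-/- DSS and LIF and DSS arrays, and at 1.67 and 1.25 on the matching wild-type arrays. The 3 arrays other than wild-type DSS and LIF lay within 0.068 of each other for Fosb.

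**Figure D2:**
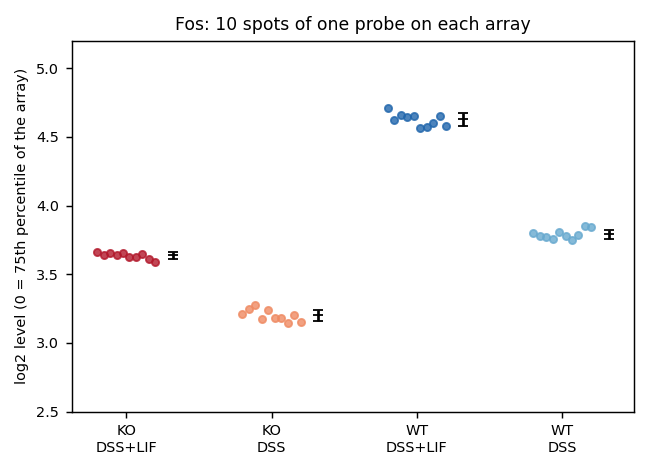
Log2 level of the 10 spots of the Fos probe on each array, with the mean and SD of the spots beside them. The spots are repeats of 1 probe on 1 array and not separate samples; the SD of 0.023 to 0.046 is small against the range of 1.43 between arrays.

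The Jun family gave the AP-1 partners, and its 3 members had different patterns. Jun, the main activating partner of Fos, had levels of 6.25 and 6.25 on the Stat4-/- DSS and LIF and DSS arrays, 4.29 on the wild-type DSS and LIF array and 6.11 on the wild-type DSS array. It was thus low on 1 array, and the other 3 lay within 0.15. Jund, a Jun protein that is present in resting cells and known as a weaker growth promoter, had 3.45 and 3.52 on the same Stat4-/- arrays, 6.33 on the wild-type DSS and LIF array and 3.29 on the wild-type DSS array. The array that was low for Jun was high for Jund, and the other 3 lay within 0.23 for Jund. Junb, which can restrain Jun and is needed for several helper T cell programs, had -0.49 and -0.92 on the Stat4-/- arrays and -1.07 and -1.04 on the wild-type arrays, in the same order of treatment. Junb was below the 75th percentile on every array and ranged over 0.59.

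Among the Egr genes, Egr1, the zinc-finger factor that serum and mitogens induce, had 3.61 and 4.19 on the Stat4-/- DSS and LIF and DSS arrays and 3.66 and 4.28 on the matching wild-type arrays. Both LIF arrays were below both DSS arrays for Egr1, and the genotypes lay close at each treatment. They lay further apart under the normal-exponential correction. Egr1 in Stat4-/- minus wild type was then -0.73 with DSS and -0.27 with DSS and LIF at an offset of 50. With no offset it was -0.32 and -0.99. Egr2 had 5.40 in Stat4-/- DSS and LIF cells, 5.01 in Stat4-/- DSS cells, 0.97 in wild-type DSS and LIF cells and 2.99 in wild-type DSS cells. Both Stat4-/- arrays were above both wild-type arrays for Egr2, whose range of 4.43 was the widest of the 10 genes and was still 2.41 over the 3 arrays without wild-type DSS and LIF.

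Atf3, a stress-induced bZIP factor that often represses inflammatory genes, had -0.13 and -1.03 on the Stat4-/- DSS and LIF and DSS arrays, and -0.48 and -0.46 on the matching wild-type arrays. It differed between the Stat4-/- arrays and hardly between the wild-type ones. Dusp1, the phosphatase that switches off p38 and JNK, had 4.37 and 4.57 on the Stat4-/- arrays and 3.83 and 4.02 on the wild-type arrays, in the same order of treatment. Both Stat4-/- arrays were above both wild-type arrays for Dusp1. This order depended on the background correction. Under the normal-exponential correction at an offset of 50, Dusp1 in Stat4-/- minus wild type was -0.08 with DSS and 0.28 with DSS and LIF. With no offset it was 0.35 and -0.40. Ier2, a small nuclear protein of the early response, had -0.39 and -0.30 on the Stat4-/- arrays, -1.57 on the wild-type DSS and LIF array, where it was not well above background, and -0.62 on the wild-type DSS array.

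The first comparison asks how the lymphocytes labelled Stat4-/- differed from wild type under DSS alone, and it does not use the array that stood apart. Both of its arrays were read in the same scan. Egr2 was 4.08-fold higher in Stat4-/- cells (log2 difference 2.03), and 281 of 10500 measured genes differed by more. Of the 10 genes, 1 passed 2-fold upward and 0 passed it downward, beside background shares of 13.2% upward and 6.81% downward over all measured genes. The other 9 differences lay between -0.59 for Fos and 0.55 for Dusp1. Their order between those was Atf3 at -0.57, Egr1 at -0.09, Fosb at 0.06, Junb at 0.12, Jun at 0.14, Jund at 0.23 and Ier2 at 0.32. The median of the 10 was 0.13, against 0.075 for all measured genes. A count of 1 in 10 is close to the background share, so it is no result about the set. With the normal-exponential background correction at an offset of 50, Fos also passed 2-fold, at -1.10.

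Under DSS and LIF, Egr2 was 21.5-fold higher in Stat4-/- cells than in wild-type cells (log2 difference 4.43), and 143 of 8348 measured genes differed by more. Jun was 3.91-fold higher (1.97) and Jund was 7.36-fold lower (-2.88) in Stat4-/- cells. Of 9 measured members, 2 passed 2-fold upward and 1 passed it downward, beside background shares of 14.1% upward and 31.3% downward over all measured genes. Ier2 was at least 2.15-fold higher in Stat4-/- cells, a bound set against the dimmest level well above background on the wild-type array. Junb at 0.59, Dusp1 at 0.55, Atf3 at 0.36, Egr1 at -0.05, Fosb at -0.42 and Fos at -0.99 did not reach 2-fold. Fos did so under the normal-exponential correction with and without the offset, and in the authors' deposited table. The median was 0.36 for the 9 and -0.45 for all measured genes. The arrays of this comparison were read in different scans, so scan and genotype cannot be told apart here. All these values rest on the wild-type DSS and LIF array, and under DSS alone, without it, Jun and Jund differed by 0.14 and 0.23.

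The response to LIF in Stat4-/- mice, again without the array that stood apart, was within 2-fold for all 10 genes. Of these, 0 passed 2-fold upward and 0 passed it downward, beside background shares of 3.21% upward and 3.08% downward over all 9783 measured genes. As reported, Atf3 had the largest difference, 1.88-fold higher with LIF (0.91), and 842 of the measured genes differed by more. Fos was at 0.44, Junb at 0.43 and Egr2 at 0.39, Jun at 0.01, Fosb and Jund at -0.07 each, Ier2 at -0.09, Dusp1 at -0.19 and Egr1 at -0.58. With a normal-exponential background correction and no offset, 5 of the 10 were at least 2-fold lower with LIF, where 24.2% of all measured genes were at least 2-fold lower and 4.36% at least 2-fold higher under that correction. These were Egr1 at -1.85, Jund at -1.37, Dusp1 at -1.36, Jun at -1.25 and Egr2 at -1.05. With an offset of 50, Egr1 alone of the 10 passed 2-fold, at -1.31, where 8.89% of all genes were at least 2-fold lower. Atf3 was at 0.43 with that offset and at 0.97 with none, smaller in size than Egr1 under both.

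In wild-type mice, Jund was 8.24-fold higher with LIF than without (log2 difference 3.04), and 350 of 8963 measured genes differed by more. Egr2 was 4.04-fold lower (-2.01) and Jun 3.53-fold lower (-1.82) with LIF. Of 9 measured members, 1 passed 2-fold upward and 2 passed it downward, beside background shares of 34.5% upward and 13.6% downward over all measured genes. Fos was at 0.84, Fosb at 0.41, Atf3 at -0.02, Junb at -0.03, Dusp1 at -0.19 and Egr1 at -0.62, and Ier2 was at least 1.83-fold lower. The median of the 9 was -0.03, against 0.57 for all measured genes. With an offset of 50, Egr1 at -1.77 and Dusp1 at -1.21 were at least 2-fold lower as well, where 17.1% of all genes were. Scaling each array instead to the median of the probes well above background on all arrays gave an all-gene median of 0.43, and between genotypes under DSS and LIF one of -0.31.

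The LIF response in Stat4-/- mice minus that in wild-type mice was 2.40 for Egr2, 1.83 for Jun and -3.11 for Jund. For 9 measured members, 2 passed 2-fold upward and 1 passed it downward, beside background shares of 16.7% upward and 33.4% downward over all 8045 measured genes. The remaining values were 0.93 for Atf3, 0.46 for Junb, 0.04 for Egr1, -0.01 for Dusp1, -0.40 for Fos and -0.48 for Fosb. With 1 array a group this difference between genotypes could not be tested, and it too rests on the wild-type DSS and LIF array.

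**Figure D3:**
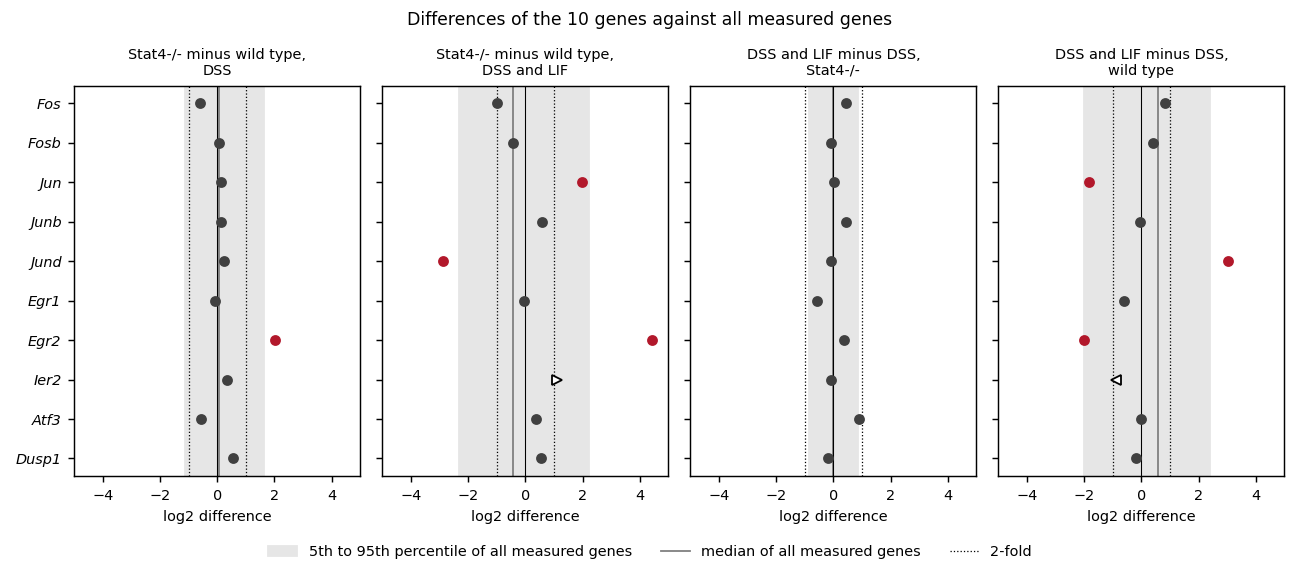
Log2 difference of each of the 10 genes in the 4 comparisons of 2 arrays; red points are at least 2-fold, and triangles are bounds for Ier2. The grey band runs from the 5th to the 95th percentile of all measured genes and the grey line is their median. Egr2 lay outside the band in both genotype comparisons, and no gene passed 2-fold for LIF in Stat4-/- mice.

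**Figure D4:**
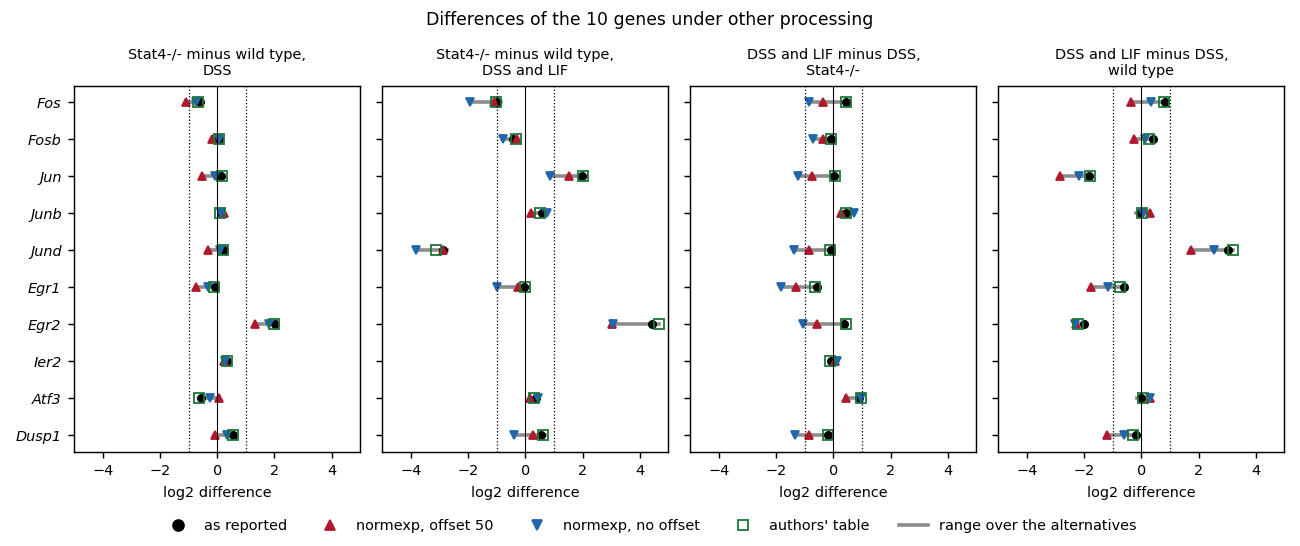
Log2 difference of each gene as reported, under the normal-exponential background correction with an offset of 50 and with none, and in the authors' deposited table; grey lines span all 10 alternatives. Egr2 stayed at least 2-fold higher in Stat4-/- cells throughout, at 1.32 to 2.03 under DSS and 3.04 to 4.66 under DSS and LIF.

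Egr2 was higher on both Stat4-/- arrays, and so were the summed neutrophil and stromal and endothelial markers. T cell and epithelial sums were lower there. The epithelial genes did not move together. Under DSS and LIF, 3 of 8 passed 2-fold upward in Stat4-/- cells and 1 downward, beside 14.1% and 31.3% of all measured genes. Epcam was 6.64-fold, Krt8 3.91-fold and Krt19 3.62-fold higher, and Krt20 was 8.20-fold lower. Under DSS, 0 of the 8 passed 2-fold upward and 2 downward. B and plasma cell, macrophage and dendritic cell and pan-leukocyte sums did not separate the genotypes. Within Stat4-/- mice Egr2 was at 5.40 with LIF and 5.01 without, and the neutrophil and stromal sums were lower with LIF. Under the normal-exponential correction that Egr2 difference turned to -0.55 with an offset of 50 and to -1.05 with none. Within wild-type mice Egr2 was at 0.97 with LIF and 2.99 without, and the neutrophil and stromal sums were lower with LIF there too. Of 8 neutrophil genes with a probe, 6, 6, 3 and 5 were well above background on the Stat4-/- DSS and LIF, Stat4-/- DSS, wild-type DSS and LIF and wild-type DSS arrays. Their summed level, in multiples of the 75th percentile, was 2337 and 3126 on the Stat4-/- arrays and 332 and 453 on the wild-type arrays, and 5 of 5 measured were at least 2-fold higher in Stat4-/- cells under DSS. The marker counts under DSS stand beside background shares of 13.2% upward and 6.81% downward over all measured genes. Among the neutrophil genes, Cxcr2 and Ltf were not well above background on any array. The summed level of the 7 T cell genes was 17.6 and 19.0 on the Stat4-/- arrays and 51.5 and 29.5 on the wild-type arrays. Of the 7, 0 passed 2-fold upward and 1 downward in Stat4-/- cells under DSS, and a count of 1 is no result about that list. Stromal and endothelial genes summed to 9.97 and 15.3 on the Stat4-/- arrays and 4.34 and 5.17 on the wild-type arrays, with 6, 7, 6 and 8 of 10 well above background in the order given for the neutrophil genes. Under DSS 3 of the 7 measured passed 2-fold upward in Stat4-/- cells and 0 downward, namely the matrix genes Col1a1 at 5.40-fold, Dcn at 5.36-fold and Col3a1 at 4.41-fold, chosen after their values were seen. Des and Pdgfra were not well above background on any array. The part of these cells in the Egr2 values was not tested. The 11 heat shock genes, some of which tissue handling also induces, summed to 372 and 421 on the Stat4-/- arrays and to 1185 and 665 on the wild-type arrays, with DSS and LIF before DSS, and their part was not tested either. Hspe1 was the brightest of them on every array, at 9.36 and 8.54 on the wild-type arrays. With LIF in wild-type mice 8 of 10 measured were higher and 2 lower, against an all-gene median of 0.57. Hsph1 was at -0.73 with LIF and 1.36 without, Dnaja1 at 1.45 and 2.73, and Hspa1a was not well above background with LIF.

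Of the 8 nearest relatives and partners of the 10 genes, 7 were measured under DSS. Fosl1 and Fosl2, Fos-family proteins, were 2.64-fold and 2.09-fold higher in Stat4-/- cells, and Ier3, an early gene that affects cell survival, was 2.09-fold higher. These calls ended with an offset of 50, where Fosl1 was at 0.76, Fosl2 at 0.41 and Ier3 at 0.46. With no offset Fosl2 and Ier3 were at 0.86 each, and quantile scaling gave Fosl2 0.99. Nab2, a repressor that binds Egr proteins, was at 0.55, Zfp36, which destabilises cytokine mRNAs, at 0.53, Srf, the serum response factor, at 0.08 and Nr4a1, an orphan nuclear receptor induced by antigen, at 0.05. The mean over probes, in place of the brightest probe, put Nab2 at 1.55. Egr3 was not well above background on any array, and Fosl1 was not on either LIF array. Under DSS and LIF, Ier3 was 7.37-fold higher in Stat4-/- cells (log2 difference 2.88, with 1.22 the lowest alternative), while Nab2 at -0.96, Nr4a1 at -0.91, Fosl2 at 0.15, Srf at 0.46 and Zfp36 at 0.67 did not reach 2-fold. The mean over probes put Fosl2 past 2-fold, at 1.65, and Srf at 0.05. In wild-type mice Ier3 was 2.66-fold lower with LIF (but -0.98 on the log2 scale with an offset of 50), with Nab2 at 0.99, Srf at -0.91, Nr4a1 at 0.69, Fosl2 at 0.32 and Zfp36 at -0.20. The mean over probes put Nab2 at 1.99, Fosl2 at -0.99 and Srf at -0.09. In Stat4-/- mice LIF left Ier3 at 0.41, Nr4a1 at -0.27, Nab2 at -0.52, Srf at -0.53 (-0.13 as the mean over probes), Fosl2 at -0.60 and Zfp36 at -0.06.

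Across 5 related lists, 93 of 95 genes had a probe. Under DSS, 8 of 78 measured passed 2-fold upward and 4 downward in Stat4-/- cells, with a median of 0.14. These are 10.3% and 5.13%, below the 13.2% and 6.81% of all measured genes. The largest differences were Jdp2, a bZIP repressor of AP-1, 5.26-fold higher, Hspe1, a mitochondrial chaperonin, 2.76-fold lower, Klf4, a zinc-finger factor of epithelium and myeloid cells, 2.66-fold lower, and Fosl1. Jdp2 was at 1.06 to 2.39 on the log2 scale over its 9 alternatives, and Hspe1 at -2.09 to -1.34. Of the 26 other early and feedback genes measured, 4 passed 2-fold upward and 1 downward, with a median of 0.43. Of the 16 other AP-1 and bZIP genes measured, 3 passed 2-fold upward and 0 downward, with a median of -0.06. Both lists are to be read against the same background shares.

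Under DSS and LIF, 8 of 64 related genes passed 2-fold upward and 15 downward in Stat4-/- cells, with a median of -0.43. These are 12.5% and 23.4%, below the 14.1% and 31.3% of all measured genes. Elk4, a ternary complex factor that works with serum response factor, was 34.8-fold lower, and Map2k4, a kinase that activates JNK, was 8.27-fold lower. The size of both depends on the background correction: with an offset of 50 Elk4 was at -2.17 and Map2k4 at -1.24 on the log2 scale, and with no offset at -3.27 and -2.09. With its probe chosen on the other 3 arrays, Elk4 gave no value here. Hspe1 was 5.76-fold lower (log2 difference -2.53, and -3.64 with no offset), and Ier3 was the third by size. Of 13 upstream kinases and serum response factor cofactors measured, 0 passed 2-fold upward and 5 downward, with a median of -0.81. In this comparison 31.3% of all measured genes passed 2-fold downward, and their median was -0.45. Under DSS, without the array that stood apart, 1 of 16 in that list passed 2-fold upward and 0 downward, with a median of 0.13.

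With LIF in wild-type mice, 14 of 64 related genes passed 2-fold upward and 8 downward, with a median of 0.32. These are 21.9% and 12.5%, below the 34.5% and 13.6% of all measured genes. Elk4 was 35.8-fold higher, Map2k4 8.13-fold higher and Spry1, an inhibitor of receptor signalling to ERK, 7.77-fold higher, while Hsph1, a heat shock protein, was 4.24-fold lower. With an offset of 50 the log2 differences were 2.77 for Elk4, 1.59 for Map2k4, 1.36 for Spry1 and -1.02 for Hsph1. The Elk4 probe stood at 3.64 on the wild-type DSS and LIF array and at -1.52 on the wild-type DSS array. With its probe chosen on the other 3 arrays, Elk4 gave no value for this comparison either. With LIF in Stat4-/- mice, 1 of 75 passed 2-fold upward and 2 downward, with a median of -0.14. These were Braf, a kinase upstream of ERK, 2.32-fold higher, and Crem, a cyclic AMP-responsive factor, and Mapk3, which encodes ERK1, at 2.18-fold and 2.02-fold lower. Crem and Mapk3 changed sign, to 0.01 and 0.31, under the background correction with no offset, and an offset of 50 left Crem at -0.06 and Braf at 0.42. Atf6, a sensor of endoplasmic reticulum stress, followed at -0.98. The list's 1.33% upward and 2.67% downward compare with 3.21% and 3.08% of all measured genes.

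**Figure D5:**
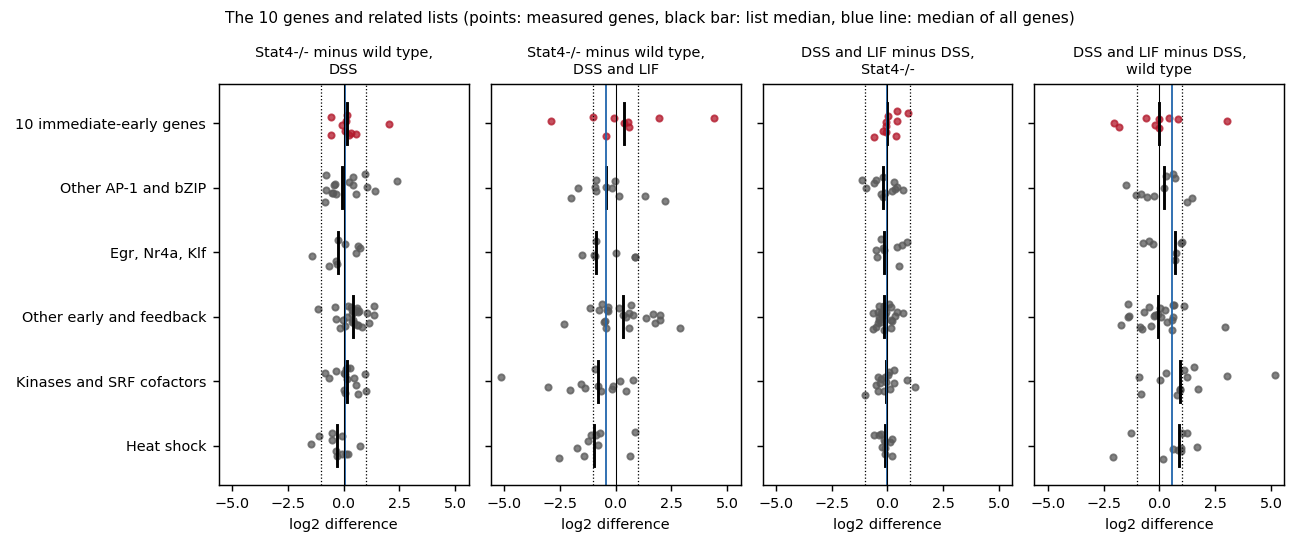
Log2 difference of every measured gene of the 10 and of the 5 related lists in the 4 comparisons; black bars are list medians and the blue line is the median of all measured genes. Spread is wide in the panels that use the wild-type DSS and LIF array and narrow for LIF in Stat4-/- mice, where 0 of the 10 genes passed 2-fold.

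Profiles most alike were sought among 8045 genes measured on all 4 arrays, by the root mean square difference of log2 levels after centring, as a description over 4 arrays. Nearest to Egr2 was Lif, which encodes LIF itself, at 0.092, with levels of 5.11 and 4.97 on the Stat4-/- DSS and LIF and DSS arrays and 0.80 and 2.88 on the matching wild-type arrays. Trmt11, a tRNA methyltransferase subunit, followed at 0.161 and Igfbp4, an insulin-like growth factor binding protein, at 0.162. For Jund the nearest were Ifih1, a sensor of double-stranded RNA, at 0.066, Ezr, a linker of membrane and actin, at 0.068 and Ttc39a at 0.076. For Jun they were Ssb, an RNA-binding protein, at 0.022, Tet2, a DNA demethylation enzyme, at 0.027 and Rcor1, a corepressor subunit, at 0.048. The Jun and Jund profiles each turn on the wild-type DSS and LIF array, while the Egr2 profile also separates the other 3.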

How the data were processed

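RNA of lamina propria lymphocytes was hybridised to 4 one-colour Agilent arrays, 1 array a group. The deposited spot intensity values were made by the authors with Agilent Feature Extraction. Its version is 11.0.1.1 in the file headers, whereas the submitters' processing notes name 9.1. Per the file headers, the processed signal is already background-subtracted. A second deposited table holds log2 values of these arrays, and how they were normalized is not stated. Its column medians were 3.31 on 3 arrays and 2.54 for wild type with DSS and LIF, where 51.2% of values sat at the lowest value, so scaling and floor stay unknown. It was used as an alternative.

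Control spots and spots marked as outliers were left out, log2 values of the spots of a probe were averaged, and each array's 75th percentile was subtracted. Of 39429 probes, 69.1% were named through RefSeq (GRCm38.p6, names and promoters). A gene took its brightest probe. A gene was measured in a comparison where at least 50% of its probe's spots were well above background on both arrays, and it was called at a log2 difference of 1. Precision is limited by the number of arrays. The signal at the 75th percentile ranged from 23.8 to 122.9.

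The 10 genes, the related lists and the marker lists were chosen with earlier results of these data known. Text names all 10 genes, their 8 nearest relatives or partners, the 4 related genes with the largest measured difference in each comparison and the 3 genes most like each of the 3 widest-ranging members. Marker lists for B and plasma cells, macrophages and dendritic cells, epithelium and stroma were also read. The alternatives were 2 background corrections, 3 other scalings (the authors' table among them), 2 background filters, 2 probe rules and the outlier spots kept. For the 10 genes, each with 1 probe, the filters, probe rules and kept spots returned every measured difference unchanged. Only the background corrections and scalings could move those differences. Normal-exponential correction used limma 3.58.1 in R 4.3.3 on the median foreground and background signals. Other steps used Python 3.11.15, numpy 2.4.6 and pandas 2.3.3, and were tested on simulated data. The wild-type DSS and Stat4-/- DSS arrays were read in 1 scan and the other 2 each in their own. Scan therefore cannot be told apart from LIF, nor from genotype under DSS and LIF.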

Additional observations from a re-analysis of the deposited data

Results flagged for a closer look

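Members whose log2 difference had opposite signs in the 2 settings of the same contrast are given here. With 1 array a group, none of these gaps was tested, all of them rest on the wild-type DSS and LIF array, and some of the signs rest on values near 0. With LIF, Jund was at -0.07 in Stat4-/- mice and 3.04 in wild-type mice, a gap of -3.11. Its signs stayed opposite in all 10 alternatives, though only the background corrections and scalings could move a measured member. Egr2 was at 0.39 in Stat4-/- mice and -2.01 in wild-type mice, a gap of 2.40. In Stat4-/- mice Egr2 turned to -0.55 with the background correction at an offset of 50 and to -1.05 with no offset, the same sign as in wild-type mice, and the gap was then 1.72 and 1.26. Jun was at 0.01 in Stat4-/- mice and -1.82 in wild-type mice, a gap of 1.83, and turned to -0.74 and -1.25 in Stat4-/- mice under the same corrections. The gaps were 0.93 for Atf3 (0.91 in Stat4-/- mice, -0.02 in wild-type mice), 0.46 for Junb (0.43 and -0.03) and -0.48 for Fosb (-0.07 and 0.41). The wild-type sign turned in 4 of 10 alternatives for Atf3, 4 of 10 for Junb and 1 of 10 for Fosb. Between Stat4-/- and wild type, the same gaps arise for Jund (-2.88 under DSS and LIF, 0.23 under DSS, gap -3.11), Atf3 (0.36 and -0.57, gap 0.93) and Fosb (-0.42 and 0.06, gap -0.48). Their sign under DSS turned with an offset of 50, to -0.31 for Jund, 0.05 for Atf3 and -0.17 for Fosb.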

How the results depend on the processing

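Counts out of 10 alternatives include the filters, probe rules and kept outlier spots, which could not move a measured member. Egr2 stayed at least 2-fold in 10 of 10 alternatives for Stat4-/- against wild type under DSS and LIF (3.04 to 4.66) and under DSS (1.32 to 2.03), and for LIF in wild-type mice (-2.31 to -2.01). Jund did so for Stat4-/- against wild type under DSS and LIF (-3.81 to -2.74) and for LIF in wild-type mice (1.72 to 3.19). Jun did so for LIF in wild-type mice (-2.83 to -1.78) but not, in 1 of 10, between genotypes under DSS and LIF (0.85 with the normal-exponential correction and no offset). Counts of members past 2-fold were within 1.5 times the reported ones in 46 of 50 repeats. The filters, probe rules and kept spots could change these counts only through Ier2. The exceptions came from background correction. With an offset of 50 the counts were 2 for genotype under DSS (Egr2 higher, Fos lower), 1 for LIF in Stat4-/- mice (Egr1, lower) and 5 for LIF in wild-type mice (1 higher, 4 lower). With no offset the count for LIF in Stat4-/- mice was 5 (all lower). Crem and Mapk3 reversed there, to 0.013 and 0.312, the only sign changes among values reported as at least 2-fold. Sign changes of smaller values were not counted apart. Of the other repeated values, 368 moved by more than the median spot-to-spot SD of their comparison, and the cause was not tested. For the difference between the LIF responses, the largest of those medians times the square root of 2 was used. Over all genes, an offset of 50 gave 335 higher and 807 lower for genotype under DSS (1387 and 715 as reported), 437 and 1206 for genotype under DSS and LIF (1180 and 2613), 5 and 869 for LIF in Stat4-/- mice (314 and 301), 796 and 1528 for LIF in wild-type mice (3093 and 1216) and 920 and 740 for the difference between the LIF responses (1345 and 2691). No offset gave 453 and 2846 for genotype under DSS and LIF, 426 and 2362 for LIF in Stat4-/- mice and 722 and 2950 for the difference between the LIF responses. No background filter gave 5877 and 2006 for genotype under DSS, 3485 and 4410 under DSS and LIF, 2469 and 1163 for LIF in Stat4-/- mice, 8812 and 3334 in wild-type mice and 3978 and 8516 for the difference between the responses. Signal limits Ier2 on the wild-type DSS and LIF array to a bound. No paired analysis was possible because each group had 1 array.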

Other observations

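Summed marker levels not given above, in multiples of the 75th percentile, are for the Stat4-/- DSS and LIF, Stat4-/- DSS, wild-type DSS and LIF and wild-type DSS arrays in that order. B and plasma cell genes summed to 99.1, 119, 118 and 151, macrophage and dendritic cell genes to 22.7, 19.1, 20.1 and 20.2 and epithelial genes to 29.4, 21.5, 40.0 and 30.1. The 3 pan-leukocyte genes summed to 8.77, 11.3, 14.5 and 8.60. The summed level of the 10 immediate-early genes was 179.6, 175.2, 158.2 and 140.3 on the same arrays.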
